A study of Mus musculus with 3 samples.

Results

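The 42 genes described here are cell cycle and DNA replication genes in mouse macrophages, chosen by symbol from the gene tables. No measured value was a criterion, but the genes and their phases were chosen with earlier results of these data known. They are 42 of the 55536 annotated genes in the tables and 42 of the 22028 protein-coding ones, and all 42 were found in all 3 libraries. For description, 15 were placed among G1 genes, 14 among S phase genes and 13 among mitotic genes. These lists are approximate, since some of the products act in more than 1 phase. Moving the genes of helicase loading, placed here among S phase genes, to another list was not tried. The cells were primary macrophages of strain C57BL/6J, grown from bone marrow per the labels, and the RNA was total RNA of the cytosolic fraction, depleted of ribosomal RNA. All 3 libraries belonged to 1 group: the cells had received Lipid A at 100 ng/ml for 12 h, had been washed out of it for 12 h, and had then received Lipid A at 100 ng/ml again for 120 min. Lipid A is the part of bacterial lipopolysaccharide that the receptor TLR4 senses. Unstimulated cells, cells stimulated only once and other RNA fractions were not analysed here, so no value below is an effect of Lipid A. The labels number the libraries as biological replicates 1, 2 and 3 but give them the same donor entry, and the spread between them may be technical.

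Cells enter the cycle when growth factors raise the D-type cyclins, which bind CDK4 and CDK6. These kinases phosphorylate the retinoblastoma protein and its relatives, which frees E2F factors to switch on the genes of DNA replication. CDK inhibitors such as p21, the product of Cdkn1a, hold the cyclin-bound kinases back. Genes of mitosis are kept off in resting cells by the DREAM complex through CHR elements in their promoters, and are switched on late in the cycle together with NF-Y at CCAAT boxes. Macrophages grown from bone marrow divide in response to CSF1, and activation through TLR4 is known to stop that division.

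Levels are in TPM, a unit that divides the reads of a gene by its length, scales each library to the same total and so can be set side by side between genes. Among the 42 genes, the G1 genes had the highest medians, the S phase genes intermediate ones and the mitotic genes the lowest. The median G1 gene had 7.54, 6.52 and 6.11 TPM in replicates 1, 2 and 3. The median S phase gene had 2.28, 2.47 and 2.57 TPM, and the median mitotic gene 0.69, 0.51 and 0.53 TPM. The 3 phases did not overlap in these medians in any library. The protein-coding genes of at least 1 TPM in all libraries had a median of 8.70, 7.57 and 7.82 TPM, above the median of the G1 genes in every library. All protein-coding genes, with no threshold, had a median of 0.13, 0.11 and 0.12 TPM, below the medians of all 3 phases. In these bulk libraries fewer cells with a transcript and less of it per cell cannot be told apart.

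**Figure D1:**
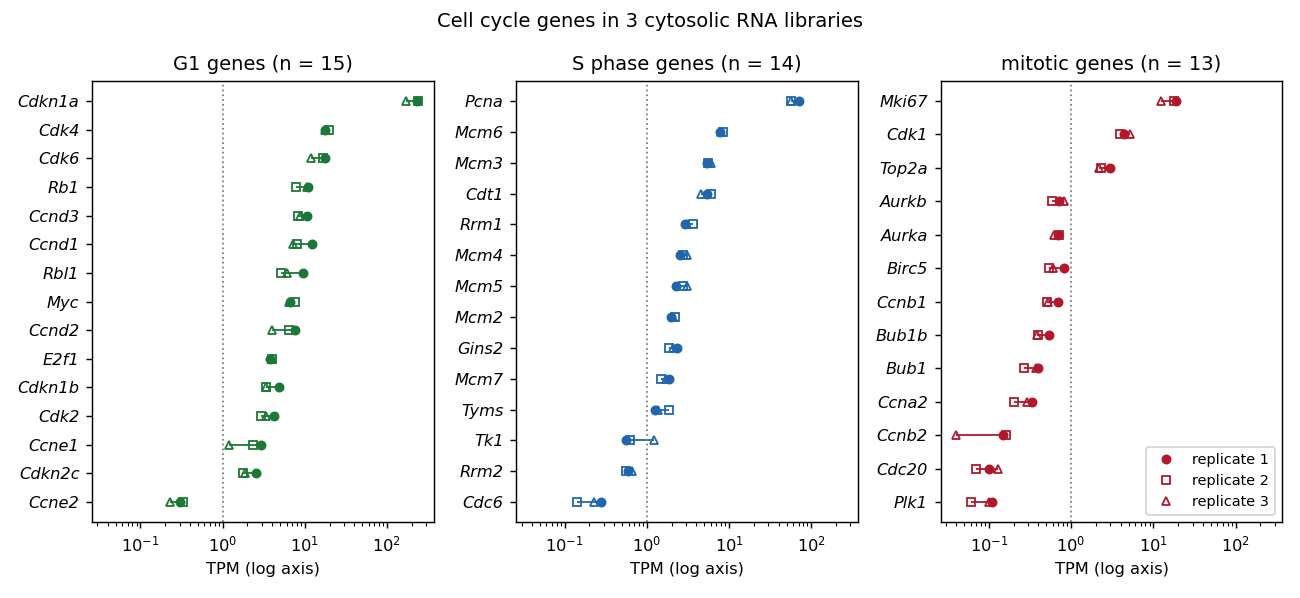
TPM of each of the 42 genes on a log axis, 1 panel per phase, with 1 symbol per replicate and a line from the lowest to the highest library; the dotted line is at 1 TPM. Of the mitotic genes only Mki67, Cdk1 and Top2a lie right of the dotted line in all 3 libraries, against 14 of 15 G1 genes.

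In all, 28 of the 42 genes reached 1 TPM in all 3 libraries, against 39.1% of all protein-coding genes. They were 14 of 15 G1 genes, 11 of 14 S phase genes and 3 of 13 mitotic genes. The mean TPM was at least 100 for 1 gene, Cdkn1a, and between 10 and 100 for 4 genes, which were Cdk4, Cdk6, Pcna and Mki67. It lay between 1 and 10 for 23 genes and under 1 for 14 genes, 10 of them mitotic. The threshold of 1 TPM is strict here, since protein-coding genes held only 32.5%, 26.5% and 27.1% of the TPM of the tables. With TPM rescaled to sum over coding and long noncoding genes alone, the count of mitotic genes was 8 in place of 3. In the second quantification of the same libraries, the count of S phase genes was 6 in place of 11. Its TPM were on a lower scale, with means of 28.8 against 61.8 for Pcna and 3.79 against 8.06 for Mcm6. The same threshold of 1 TPM was therefore stricter there.

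On the scale of log2(TPM + 1), the median G1 gene lay 2.29 ± 0.06 above the median mitotic gene (mean ± SD of 3 libraries), and the difference was positive in 3 of 3. The median S phase gene lay 1.12 ± 0.14 above the median mitotic gene, again positive in 3 of 3 libraries. The difference of S phase minus G1 genes was -1.17 ± 0.19 and was positive in 0 of 3 libraries. These differences are descriptions of gene lists and have no test. A filter on the level itself leaves, by construction, only the 3 highest mitotic genes, so it cannot tell what the order rests on. Among genes of at least 1 TPM in all libraries, where Mki67, Cdk1 and Top2a were the only mitotic genes, the S phase minus mitotic difference turned to -0.53 and the G1 minus mitotic difference shrank to 0.59. Without the 10 genes that overlap a protein-coding gene above 1 TPM, the S phase minus G1 difference was -0.64. A smaller pseudocount of 0.1 in place of 1 gave 1.91 for S phase minus mitotic, a larger value in the same direction.

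The promoter windows of 5 genes are shown because the results below come back to them: Cdkn1a, the highest of the 42 genes, Mcm6, the highest helicase subunit, and the mitotic genes Mki67, Cdk1 and Plk1, which hold like letters and stood far apart in level. They are RefSeq sequences of build GRCm38.p6, 5′ to 3′ on the strand of the gene. Each has 250 bases before and 50 bases after an annotated start. For Cdkn1a the window shown was picked because it held the pair of CATG cores. It belongs to the start of Cdkn1a-202, which held 0.49% ± 0.19 of the TPM of the gene. The window of Cdkn1a-201, which held 99.2%, is not shown. Capitals mark E2F letters in Mcm6 and Cdk1, CHR letters in the 3 mitotic genes, CCAAT on either strand (ATTGG on the other) in Mcm6 and the 3 mitotic genes, and a pair of CATG cores with the bases between them in Cdkn1a. The windows are chr17:29090729-29091028 on the plus strand for Cdkn1a, chr1:128359656-128359955 on the minus strand for Mcm6, chr7:135716330-135716629 on the minus strand for Mki67, chr10:69352863-69353162 on the minus strand for Cdk1 and chr7:122159185-122159484 on the plus strand for Plk1.
Cdkn1a: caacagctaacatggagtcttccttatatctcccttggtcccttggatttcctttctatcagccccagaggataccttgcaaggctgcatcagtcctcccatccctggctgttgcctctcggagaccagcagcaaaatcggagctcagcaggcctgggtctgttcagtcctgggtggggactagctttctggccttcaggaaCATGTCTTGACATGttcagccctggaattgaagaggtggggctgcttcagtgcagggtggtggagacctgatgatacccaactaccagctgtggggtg
Mcm6: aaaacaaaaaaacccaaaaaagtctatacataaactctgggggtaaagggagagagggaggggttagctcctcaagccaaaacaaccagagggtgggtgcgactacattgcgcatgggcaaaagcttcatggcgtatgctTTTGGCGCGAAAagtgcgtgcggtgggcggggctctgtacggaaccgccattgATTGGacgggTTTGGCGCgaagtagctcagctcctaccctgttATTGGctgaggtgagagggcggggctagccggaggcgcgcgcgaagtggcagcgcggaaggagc
Mki67: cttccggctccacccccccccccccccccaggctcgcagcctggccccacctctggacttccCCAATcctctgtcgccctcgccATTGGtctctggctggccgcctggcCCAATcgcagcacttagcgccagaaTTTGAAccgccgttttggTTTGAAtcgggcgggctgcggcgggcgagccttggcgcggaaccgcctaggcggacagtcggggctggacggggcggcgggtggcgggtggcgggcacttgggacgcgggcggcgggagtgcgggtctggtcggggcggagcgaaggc
Cdk1: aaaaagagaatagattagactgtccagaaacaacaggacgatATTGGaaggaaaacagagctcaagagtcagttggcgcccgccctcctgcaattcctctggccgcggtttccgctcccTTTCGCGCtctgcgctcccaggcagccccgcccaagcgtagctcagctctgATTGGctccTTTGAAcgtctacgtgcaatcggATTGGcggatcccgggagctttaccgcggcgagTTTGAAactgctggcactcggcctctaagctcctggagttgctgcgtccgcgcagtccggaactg
Plk1: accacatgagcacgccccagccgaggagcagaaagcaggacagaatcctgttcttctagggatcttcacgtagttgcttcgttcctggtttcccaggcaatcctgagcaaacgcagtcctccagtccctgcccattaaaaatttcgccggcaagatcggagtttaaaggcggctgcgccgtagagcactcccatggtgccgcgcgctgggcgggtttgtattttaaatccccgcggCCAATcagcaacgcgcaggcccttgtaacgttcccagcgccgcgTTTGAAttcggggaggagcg

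The CDK inhibitors spanned the widest range of the G1 genes. Cdkn1a (ENSMUSG00000023067.14, chromosome 17, 29090976 to 29100727, plus strand, mm10) had 229.99, 240.8 and 171.24 TPM in replicates 1, 2 and 3, a mean of 214 ± 37.4 TPM (SD, n = 3). It ranked 170 among the 22028 protein-coding genes, and replicate 3 was its lowest library. Cdkn1b, which encodes the inhibitor p27, had 4.84, 3.39 and 3.35 TPM. Cdkn2c, which encodes p18, an inhibitor of CDK4 and CDK6, had 2.57, 1.78 and 1.89 TPM. Both lay far below Cdkn1a in every library, and the ratio of Cdkn1a to Cdkn1b was 47.5, 71.0 and 51.1.

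The kinase genes Cdk4 and Cdk6 came next after Cdkn1a in mean level among the G1 genes. Cdk4 had 17.87, 19.94 and 17.52 TPM and Cdk6 had 17.76, 16.53 and 12.06 TPM. Cdk4 was the higher in every library, by little in replicate 1. In the second quantification Cdk6 was the higher in replicates 1 and 2, so their order depends on the quantification. Cdk2, the partner of the E-type and A-type cyclins, had 4.17, 2.95 and 3.34 TPM, below Cdk4 and Cdk6 in every library. Cdkn1a exceeded Cdk4 by 12.9, 12.1 and 9.77 times, a mean ratio of 11.6 ± 1.61. Cdk4 shares its locus with Tspan31 on the opposite strand, which had 33.1 TPM on average, and the sources used here do not state whether reads were counted by strand. Another 9 of the 42 genes also overlap a protein-coding gene above 1 TPM: Rb1, Ccnd3, Ccnd1, Ccne2, Cdt1, Gins2, Mcm7, Ccna2 and Cdc20. Of these, Ccne2 overlaps Ints8 (3.91 TPM), Ccna2 overlaps Exosc9 (9.16 TPM) and Cdc20 overlaps Elovl1 (33.4 TPM), so their own low values are uncertain.

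All 3 D-type cyclins, the growth factor sensors of G1, were present at like levels. Ccnd3 had 10.78, 8.30 and 8.68 TPM, Ccnd1 had 12.32, 8.15 and 7.16 TPM, and Ccnd2 had 7.54, 6.52 and 4.05 TPM. The libraries of Ccnd3 and Ccnd1 overlapped in range, and Ccnd2 was the lowest of the 3 in every library. The E-type cyclins, which drive entry into S phase, were lower: Ccne1 had 2.90, 2.37 and 1.21 TPM and Ccne2, the lowest G1 gene, had 0.30, 0.33 and 0.23 TPM. Summed over their members, D-type cyclins came to 30.6, 23.0 and 19.9 TPM, E-type cyclins to 3.20, 2.70 and 1.44 TPM, and Ccna2, Ccnb1 and Ccnb2 to 1.17, 0.87 and 0.86 TPM. The sums stood in that order, from high to low, in all 3 libraries, but single genes did not, since Ccnb1 (0.69, 0.51 and 0.53 TPM) lay above both Ccne2 and Ccna2 in every library. The D-type sum was 7.01, 6.43 and 8.65 times the sum of the E-type, A-type and B-type cyclins.

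The retinoblastoma protein itself and its relative p107 were both detected. Rb1 had 11.03, 7.78 and 10.52 TPM, and was the fourth of the G1 genes by its mean. Rbl1, which encodes p107, had 9.48, 5.17 and 6.11 TPM, with replicate 1 apart from the others. E2f1, an activating E2F factor, had 3.81, 4.03 and 4.04 TPM, a mean of 3.96 ± 0.13 TPM. Myc, the growth-promoting transcription factor, had 6.62, 7.53 and 6.41 TPM.

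Among the S phase genes, 1 stood far above the others. Pcna (ENSMUSG00000027342.14, chromosome 2, 132249162 to 132253314, minus strand), the sliding clamp of replicative DNA polymerases and of DNA repair, had 71.16, 57.48 and 56.84 TPM, a mean of 61.8 ± 8.09 TPM. Its processed pseudogene Pcna-ps2 had 0.55, 0.87 and 1.26 TPM. The MCM proteins form the ring helicase that is loaded at replication origins, and their genes were all above 1 TPM in every library. Mcm6 led them with 7.86, 8.39 and 7.94 TPM, followed by Mcm3 with 5.41, 5.61 and 6.06 TPM. Mcm7 was the lowest with 1.84, 1.48 and 1.72 TPM, and Mcm4, Mcm5 and Mcm2 had means of 2.78, 2.71 and 2.09 TPM. So the transcripts of this ring, whose subunits are present in equal number in the protein complex, differed by 4.27, 5.67 and 4.62 times between Mcm6 and Mcm7. Pcna exceeded the median MCM gene by 29.7, 20.98 and 18.4 times.

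The factors that load the helicase differed from each other. Cdt1, which brings the MCM ring to origins, had 5.36, 5.96 and 4.62 TPM. It overlaps the protein-coding gene Gm20388 on the same strand, which had 5.41, 10.4 and 7.77 TPM, so its own level is uncertain. Cdc6, the partner of Cdt1 in loading, was the lowest S phase gene with 0.28, 0.14 and 0.23 TPM, which rested on 20, 40 and 40 expected counts. Gins2, a subunit of the GINS complex that activates the helicase, had a mean of 2.08 ± 0.21 TPM. The genes that make DNA precursors were low except for the large subunit of ribonucleotide reductase. Rrm1 had a mean of 3.22 ± 0.39 TPM and Rrm2, the small subunit, 0.60 ± 0.05 TPM, a ratio of 4.93, 6.54 and 4.68. Tyms, which encodes thymidylate synthase, had 1.26, 1.88 and 1.37 TPM. Tk1, which encodes the cytosolic thymidine kinase, had 0.56, 0.63 and 1.22 TPM, with replicate 3 apart from the others.

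The mitotic genes were split between Mki67 and the rest. Mki67 (ENSMUSG00000031004.8, chromosome 7, 135689784 to 135716361, minus strand), which encodes the proliferation marker Ki-67 that coats mitotic chromosomes, had 18.92, 17.83 and 12.36 TPM, a mean of 16.4 ± 3.52 TPM. Cdk1, the kinase that drives entry into mitosis, had 4.34, 3.95 and 5.14 TPM. Top2a, the topoisomerase that untangles replicated chromosomes, had 2.95, 2.33 and 2.21 TPM. These were the mitotic genes above 1 TPM in all libraries. Aurkb, the kinase of the chromosomal passenger complex, came next with 0.72, 0.58 and 0.82 TPM. Its partner in that complex Birc5, the centrosome kinase Aurka and cyclin B1 (Ccnb1) had means of 0.66, 0.68 and 0.58 TPM. The checkpoint genes Bub1b and Bub1 had means of 0.44 and 0.35 TPM, and cyclin A2 (Ccna2) of 0.27 TPM. Ccnb2, and Cdc20, which activates the anaphase-promoting complex, had means of 0.12 and 0.10 TPM. Plk1, the polo-like kinase of mitosis, was the lowest of the 42 genes with 0.11, 0.06 and 0.10 TPM, from 10, 15 and 13 expected counts.

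Mki67 exceeded the median of the other 12 mitotic genes by 30.8, 39.2 and 27.2 times. It exceeded Plk1 by 172, 297 and 124 times. The long form Mki67-201, a protein-coding transcript of 10061 bases, held 95.4% ± 1.03 of the TPM of the gene. The whole gene had 8205, 20520 and 7948 expected counts in replicates 1, 2 and 3.

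Genes of the same pathways that were not among the 42 had medians near those above for S phase and mitotic genes, and a lower one for G1 genes. Of 30 other G1 genes 21 reached 1 TPM in all libraries, and their median was 2.33, 2.34 and 2.13 TPM, below the median of the 15 G1 genes described above in every library. Of 50 other S phase genes 38 did so, with a median of 2.71, 2.20 and 2.45 TPM. This median lay above that of the other G1 genes in replicates 1 and 3 and below it in replicate 2. The order of G1 over S phase genes thus belongs to the 42 genes and was not repeated by the other genes. Of 42 other mitotic genes 11 did so, with a median of 0.62, 0.52 and 0.57 TPM. The highest of the other G1 genes were Max, the partner of Myc, with 57.9, 35.02 and 43.88 TPM, Mxd1, which competes with Myc for Max, with 53.52, 18.68 and 20.34 TPM, and the repressive factor E2f4 with 11.79, 12.23 and 11.62 TPM. The highest of the other S phase genes was Samhd1, which degrades DNA precursors, with 399.66, 254.9 and 291.06 TPM. The salvage kinase Dck had 35.57, 15.66 and 17.88 TPM and the clamp loader subunit Rfc2 had 22.44, 15.95 and 18.21 TPM. The highest of the other mitotic genes were the securin gene Pttg1 with 45.75, 29.71 and 26.58 TPM, the checkpoint gene Bub3 with 9.37, 9.76 and 10.02 TPM and the condensin gene Smc4 with 8.37, 5.63 and 7.18 TPM.

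**Figure D2:**
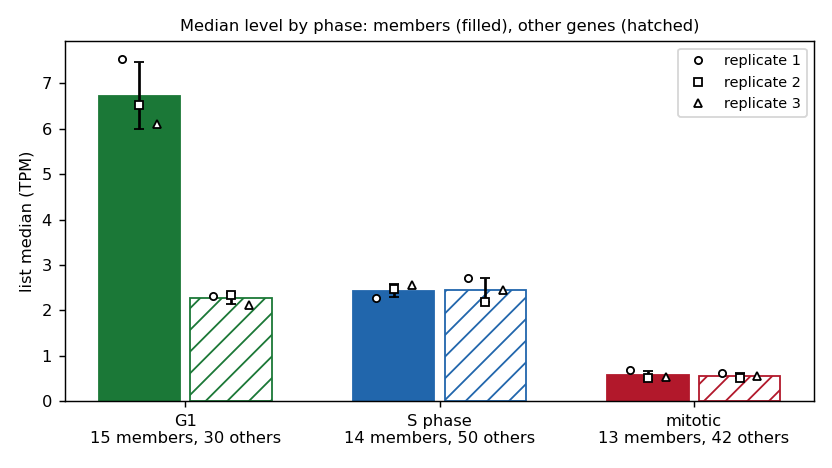
Median TPM of the 42 genes by phase (filled bars) and of the other genes of the same phase (hatched bars); bars are means of the 3 libraries, error bars the SD and symbols the libraries. The G1 bars differ between the lists (6.72 against 2.26 TPM), and the mitotic bars are 0.58 and 0.57 TPM.

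The libraries held 29273913, 64712406 and 37602753 expected counts on genes. The cells showed the markers of their label, with all 12 macrophage markers above 1 TPM in all libraries and a sum of 8280, 7444 and 7324 TPM. Of 10 markers of dividing myeloid progenitors, Gfi1 alone did so, and their sum was 1.97, 1.80 and 1.98 TPM. Of 10 neutrophil markers 5 did so, led by Csf3r and Lcn2, while Ly6g and Cxcr2 were at or near 0. No erythroid, lymphocyte or fibroblast marker reached 1 TPM in all libraries.

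Within 1 group the question left to a test is whether the libraries differed by more than counting error. A chi-square test of rounded expected counts against TMM-scaled library sizes, with Benjamini-Hochberg adjustment over 14568 genes, found a difference for 26 of the 42 genes, against 72.0% of all genes tested. They were 13 of 15 G1 genes, 10 of 14 S phase genes and 3 of 13 mitotic genes. The test compares these libraries and not conditions. Leaving out replicate 1, 2 or 3 gave 17, 18 and 21 of the 42 genes, against 57.1%, 52.5% and 54.0% of all genes tested with those libraries left out. The mitotic genes that differed were Mki67, Top2a and Ccnb2, and the 10 mitotic genes under 1 TPM had at most 144 expected counts in any library. Ccnb2 rested on 9, 25 and 4 expected counts in replicates 1, 2 and 3, and its pseudogene Ccnb2-ps had 0, 3 and 6. With no filter on low counts, 2 mitotic genes differed in place of 3.

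On TMM-scaled CPM, which are counts scaled to a common library size, the largest ratios of the highest to the lowest library among genes of at least 1 TPM were 2.45 for Ccne1, 1.72 for Ccnd2, 1.61 for Mki67, 1.59 for Ccnd1 and 1.56 for Rbl1. Ccne1 had 8.25, 7.79 and 3.37 CPM in replicates 1, 2 and 3 (adjusted p = 4.01e-19, chi-square test with Benjamini-Hochberg adjustment over all genes tested). Ccnd2 had 70.5, 71.7 and 41.8 CPM, and Mki67 had 285, 326 and 203. For these 3 genes replicate 3 was the low library. Ccnd1 had 69.2, 54.1 and 43.6 CPM and Rbl1 had 65.0, 41.7 and 44.8, with replicate 1 highest for both.

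The next counts are on TMM-scaled CPM, for genes at 1 TPM in all libraries. Of the G1 genes, 8 of 14 were highest in replicate 1, 6 in replicate 2 and 0 in replicate 3. Of the S phase genes, 1 of 11 was highest in replicate 1, 9 in replicate 2 and 1 in replicate 3. The shares of protein-coding genes at that level were 34.9%, 45.9% and 19.2%. Of the G1 genes 3, 3 and 8 were lowest in replicates 1, 2 and 3, and of the S phase genes 9, 0 and 2. The shares of protein-coding genes were 36.4%, 24.7% and 38.9%. On TPM, Gins2 (2.30, 1.88 and 2.06) and Mcm7 (1.84, 1.48 and 1.72) were instead highest in replicate 1. The other S phase genes lowest there on CPM were lowest there on TPM as well. On CPM, the median log2 deviation of the 11 S phase genes from the mean of the gene was -0.18, 0.18 and 0.04 in replicates 1, 2 and 3. It was -0.01, 0.04 and -0.04 for the protein-coding genes at that level. For G1 genes it was 0.11, 0.08 and -0.14, and for the 3 mitotic genes at that level 0.06, 0.11 and -0.17. No difference between phases was tested. Replicate 1 was also the library with the fewest counts. The neutrophil markers summed to 76.2 TPM in replicate 1, 38.5 TPM in replicate 2 and 50.5 TPM in replicate 3, mostly from Csf3r and Lcn2, while the median of the 10 markers was 1.20, 0.80 and 1.23 TPM. The part of depth and of these markers in the lower S phase values was not tested.

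**Figure D3:**
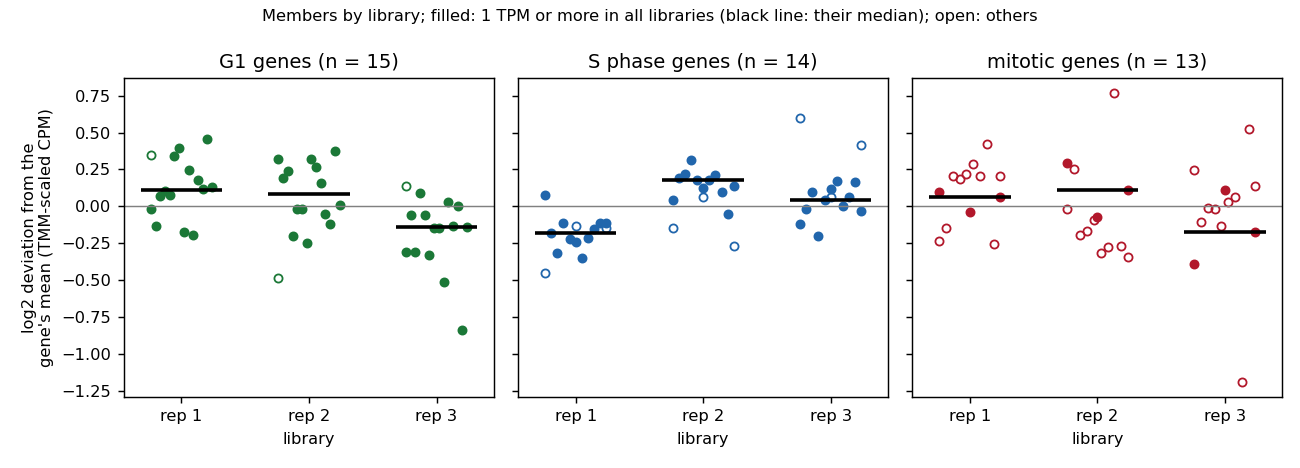
Log2 deviation of each gene from its mean over the libraries, from TMM-scaled CPM, by replicate and phase; filled points are genes at 1 TPM or more in all libraries, black lines their medians, open points the others. The S phase medians are -0.18, 0.18 and 0.04 in replicates 1, 2 and 3, and the lowest filled G1 point, in replicate 3, is Ccne1.

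The transcript tables divide each gene among its annotated transcripts, which include forms with a retained intron and forms subject to nonsense-mediated decay. Of the 28 genes at 1 TPM in all libraries, 21 had at least 90% of their TPM on protein-coding transcripts and 4 had under 75%, against 70.0% and 15.2% of 8607 protein-coding genes at that level. The median share was 99.1% ± 1.11, against 97.4% ± 1.71 for those genes. All 14 of the G1 genes were above 75% in the first transcript table. In the second table Rbl1 (66.6%) and Gins2 (62.4%) were under 75% as well and Mcm3 (81.7%) was not. Cdkn1a had 99.2% ± 0.35 on the coding transcript Cdkn1a-201.

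In the first table the 4 genes under 75% were Tyms and Mcm3 among S phase genes and Cdk1 and Top2a among mitotic genes. Tyms had 23.7% ± 10.5 of its TPM on coding transcripts, and its leading form was Tyms-205, of the nonsense-mediated decay class, with 69.8%, 62.9% and 52.3% of the TPM of the gene. That form rested on 16.1, 58.0 and 19.5 expected counts. Cdk1 had 56.8% ± 8.28 on coding transcripts, its leading form Cdk1-202 holding 50.2% ± 4.30. Most of the rest was Cdk1-204, a retained intron form of 475 bases, with 33.7%, 47.3% and 42.02%, from 17.1, 59.5 and 37.7 expected counts. TPM divides by length, so a short form with few reads weighs heavily in these shares. Counting coding transcripts alone left 3 mitotic genes and 10 S phase genes at 1 TPM in all libraries.

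Mcm3 had 58.9% ± 5.68 on its coding form Mcm3-201 and the rest on retained intron forms, mostly Mcm3-205 and Mcm3-203. In the second transcript table Mcm3-201 held 81.7% ± 9.11, so this share depends on the quantification. Top2a had 64.7% ± 3.25 on coding transcripts and the rest on the noncoding forms Top2a-203 and Top2a-207. A further 3 genes had a leading coding form with under 60%. Myc was split among coding forms, with 26.6% ± 2.51 each on Myc-205 and Myc-201, which had the same value in every library. E2f1 had 53.7% ± 2.37 on E2f1-202, while the second table put 67.4% ± 2.93 on E2f1-201. Cdk2 had 46.0% ± 8.11 on Cdk2-202 and 43.4% ± 10.4 on Cdk2-201, whose ranges overlapped. The same leading form stood in both tables for 27 of 28 genes, the exception being E2f1.

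**Figure D4:**
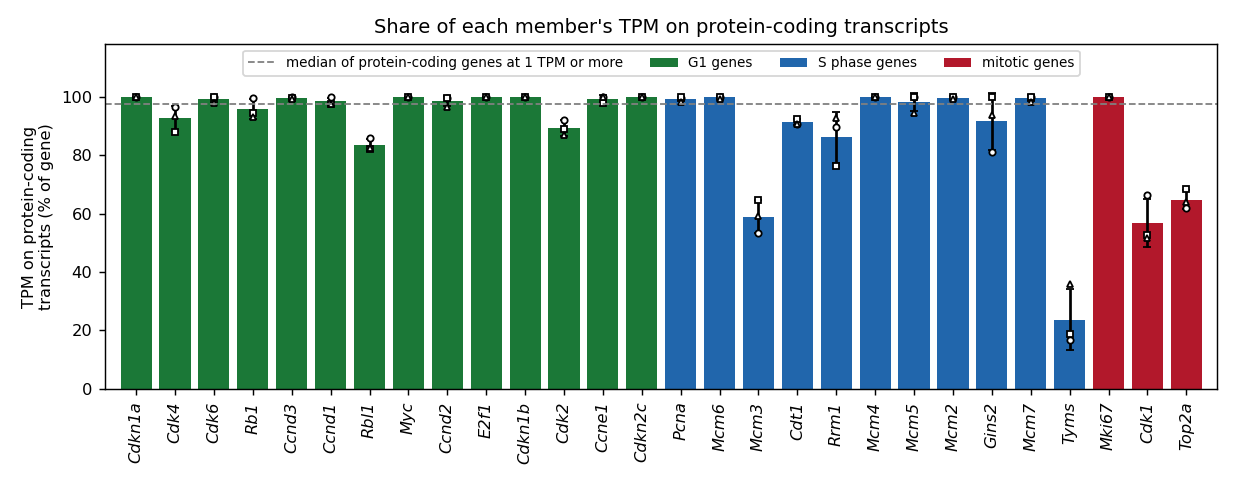
Percent of the TPM of each gene on protein-coding transcripts, for the 28 genes at 1 TPM in all libraries, coloured by phase; bars are means, error bars the SD and symbols the libraries, and the dashed line is the median of 8607 protein-coding genes (97.4%). Tyms (23.7%), Cdk1 (56.8%), Mcm3 (58.9%) and Top2a (64.7%) lie below the others.

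Of the 42 genes, 33 had a promoter window in the RefSeq table: 10 G1, 12 S phase and 11 mitotic genes. Motifs of 4 kinds were searched as exact letters on both strands, and a gene with several windows counted once. The E2F set was TTTGGCGC, TTTCCCGC, TTTCGCGC and TTTGCCGC, the CHR was TTTGAA, the NF-Y box CCAAT and the E-box CACGTG. The background is the share of the 27025 genes in the table with a match. A match describes letters in the window and not a bound site.

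Phases differed in the letters of their promoters. E2F letters were found in 6 of 12 S phase genes (Cdc6, Cdt1, Mcm3, Mcm5, Mcm6 and Mcm7), 2 of 10 G1 genes (Cdk2 and Rbl1) and 1 of 11 mitotic genes (Cdk1), against 2.60% of all genes. CHR letters were found in 8 of 11 mitotic genes (Aurka, Bub1b, Ccnb2, Cdc20, Cdk1, Mki67, Plk1 and Top2a), 1 of 12 S phase genes (Mcm2) and 0 of 10 G1 genes, against 20.2% of all genes. CCAAT was found in 10 of 11 mitotic genes, 8 of 12 S phase genes and 4 of 10 G1 genes, against 41.1% of all genes. The E-box was found in 3 of 10 G1 genes (Cdk4, Cdk6 and Cdkn2c) and in Tyms, against 8.09% of all genes.

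**Figure D5:**
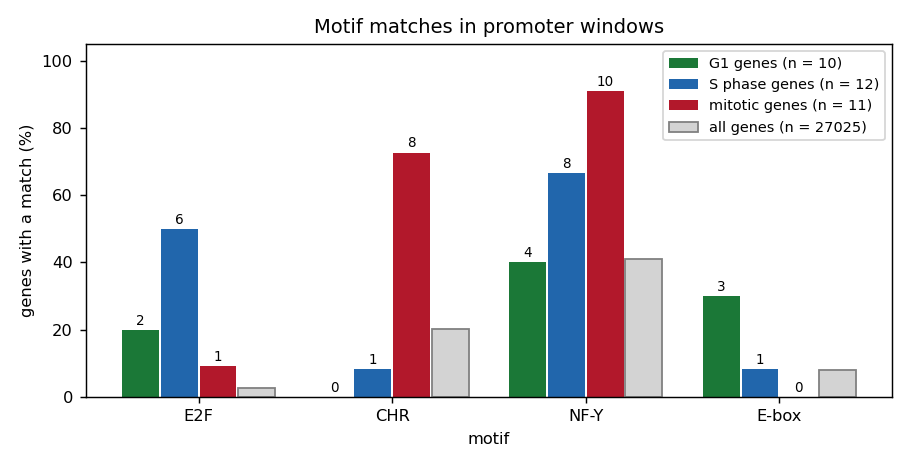
Percent of genes with a match to each motif in the promoter window, for the 3 phases and for all genes in the table; the number of genes with a match stands above each phase's bar. CHR letters are in 8 of 11 mitotic genes, 1 of 12 S phase genes and 0 of 10 G1 genes.

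In the sequences shown above, Mcm6 held 3 E2F matches, of which a pair on opposite strands overlap in the run of capitals, and 2 CCAAT boxes. Mki67 held 2 CHR and 3 CCAAT matches, Cdk1 held 2 CHR, 3 CCAAT and 1 E2F match, and Plk1 held 1 of each of CHR and CCAAT. Mki67, Cdk1 and Plk1 thus shared both kinds of letters, while their means were 16.4, 4.48 and 0.09 TPM. The window of Cdkn1a held a pair of CATG cores with 6 bases between them, the spacing of the cores in elements bound by p53, the DNA damage response factor that activates Cdkn1a. This motif was searched after the sequence had been seen. Such a pair was found in none of the other 32 genes with a window, and in 0.833% of all genes. The window belongs to the start of Cdkn1a-202, which held 0.49% ± 0.19 of the TPM of Cdkn1a, and the window at the start of Cdkn1a-201 held none of the motifs searched.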

How the data were processed

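Total RNA of the cytosolic fraction was measured in 3 libraries of 1 group. Expected counts and TPM per gene and per transcript, and the percent of a gene's TPM held by each transcript, are the authors' deposited values, per the file headers. A second deposited transcript table gives estimated counts and TPM and was summed per gene. The notes deposited with the files name build mm10 and annotation M21. For the aligner, the quantifiers, their versions and the strand setting, the record is: not given in the sources used here. Rows that name no gene were left out of library sizes: they took 0.35%, 0.169% and 0.168% of counts in replicates 1, 2 and 3. The authors took TPM over all rows, and these were kept as deposited.

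The 42 genes, their phases and the other lists were chosen with earlier results of these data known, so lists are described by counts and medians without a test. Phase differences are differences of list medians of log2(TPM + 1) per library. Expected counts were rounded for TMM factors (edgeR 4.0.16), DESeq2 1.42.0 size factors and the chi-square test, which took genes that reached 10 counts in any library and a Benjamini-Hochberg threshold of 0.05. The test was tried on simulated Poisson counts, which hold no spread beyond counting error. That simulation therefore does not show how the test behaves with the spread of these libraries. It measures spread over counting error, and reads without molecular identifiers are not independent molecules. Values per library are given for the 4 highest and the lowest genes of each phase, all D-type and E-type cyclins, CDKs and CDK inhibitors and the 5 genes with the largest ratio between libraries, and transcripts for genes whose leading form is not coding or holds under 60%. Other genes given per library (Myc, E2f1, Mcm7, Tyms, Tk1, Ccnb1 and the counts of Ccnb2) were added after their values were seen. Of the other pathway genes the 3 highest of each list are named, and Rrm2b was added after its values were seen. Promoters were RefSeq windows of GRCm38.p6, matched by symbol for 33 of 42 genes. Ccnd1, Ccnd2, Ccne2, Rb1, Myc, Mcm4, Gins2, Ccna2 and Aurkb had no window used here. Alternatives were another pseudocount, filter, scaling, list assignment and quantification, and each library left out. Restricting to coding transcripts, leaving out the highest gene of each phase and leaving out overlapping genes were chosen after seeing the data. Software was Python 3.11.15 with scipy 1.17.1, pandas 2.3.3, matplotlib 3.10.9 and numpy 2.4.6, and R 4.3.3.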

Additional observations from a re-analysis of the deposited data

How the results depend on the processing

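Values are differences of phase medians on the log2(TPM + pseudocount) scale. G1 minus mitotic stayed positive under every alternative run. It was 3.34 with a pseudocount of 0.1, 0.59 for genes of at least 1 TPM in all libraries, 1.84 in the second quantification, 3.02 with TPM rescaled to sum over coding and long noncoding genes alone, 2.01 with list means, 2.57 with Ccne1, Ccne2, Cdk2, E2f1 and Ccna2 placed among S phase genes, 2.20 without Cdkn1a, Pcna and Mki67 and 1.83 without genes that overlap a protein-coding gene above 1 TPM. S phase minus mitotic was 1.91 with the pseudocount of 0.1, 0.78 in the second quantification and 1.65 with rescaled TPM. It turned to -0.53 for genes of at least 1 TPM, where 3 mitotic genes remain by construction. S phase minus G1 stayed negative, at -1.43 with the pseudocount of 0.1, -1.37 with rescaled TPM, -1.54 with the 5 genes reassigned and -0.64 without overlapping genes. The causes of the other shifts were not tested. Leaving out each library gave 2.27 to 2.33, 1.08 to 1.20 and -1.25 to -1.06 for the 3 differences, and 17 to 21 of the 42 genes that differed between libraries in place of 26, while the share of all genes tested was 52.5% to 57.1% in place of 72.0%. The count of genes at 1 TPM in all libraries was 35 with rescaled TPM, 21 in the second quantification and 40 with at least 10 expected counts in its place, in place of 28. After rescaling, 40 of 42 genes lay within 1.5-fold between the quantifications, Tk1 and Ccne2 being the exceptions, at 1.56 and 1.71 times. Depth limits the lowest genes, such as Plk1 and Ccnb2. No paired analysis was possible because there is 1 group.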
